A study of Mus musculus with 64 samples.

Results

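Loss of Roquin was examined at the latest time of a restimulation series, in CD4 T cells from the spleens of C57BL/6J mice, restimulated with anti-CD3 and anti-CD28 antibodies for 4 h. The comparison held 8 of the 64 libraries of the series, chosen by their labels: 4 labelled DKO (Rc3h1/2 fl/fl; Cd4-Cre-ERt2) and 4 labelled WT (Cd4-Cre-ERt2). Both groups carried the tamoxifen-inducible Cre made in Cd4-expressing cells, and both are described under a protocol in which deletion was induced with 4-OH-tamoxifen, so the control also carried Cre. The cells had been activated in vitro through CD3 and CD28 under Th1 conditions, expanded in medium with IL-2 and then restimulated. The other libraries of the series were of the same cells at 0, 1 and 2 h and of cells lacking Regnase-1 (Zc3h12a) or all 3 genes. Nothing in the labels ties the 4 libraries of a group to separate mice or cultures, so the p-values reflect library-to-library spread alone, and that spread may be technical.

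The paralogous Roquin proteins, products of Rc3h1 and Rc3h2, bind RNA and recognise small hairpins in the 3′ untranslated regions (UTRs) of messenger RNAs and recruit the deadenylation and decapping machinery to them. Regnase-1, encoded by Zc3h12a, is an endonuclease that cleaves hairpins of the same kind. Their known substrates encode costimulatory receptors, cytokines and regulators of NF-κB, and after antigen receptor signalling both proteins are cut by the protease MALT1, which is known to relieve the repression for a time.

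Levels are given as read counts normalized to a common library size, in the order in which the deposited table lists the 4 libraries of a group, and changes are log2 differences (DKO minus WT) ± SE with n = 4 per group. Adjusted p values are from limma over 16140 genes, and a gene is said to have risen or fallen, or to be called, where this value was under 0.05. A changed level in bulk RNA does not tell fewer cells of a type from less RNA per cell. The 8 libraries held 6390753 to 9759366 reads, and the 10 most abundant loci took 28.6 to 37.1% of them. Library 4, the last of the list, stood apart in both groups: its chi-square per degree of freedom against the others of its group was 23.0 to 47.1, against 5.11 to 14.0 between the other 3.

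Rc3h1 was lower in every DKO library than in any WT library. The gene (chromosome 1, 160906418 to 160974978, plus strand, GRCm38) was at 1132, 1181, 1284 and 1228 normalized counts in WT and at 551, 506, 548 and 539 in DKO cells. It fell by 1.17 ± 0.10 (adjusted p = 2.2e-12), and the 4 DKO values lay close together. Rc3h2 (chromosome 2, 37370069 to 37422903, minus strand) was at 505, 547, 695 and 474 in WT and 599, 697, 709 and 561 in DKO cells, which overlapped (log2 change 0.22 ± 0.12, adjusted p = 0.31). The sources used here do not say which exons are floxed. A whole-gene count still includes the exons that Cre leaves in place, so these values check the labels only in part. Zc3h12a, which encodes Regnase-1 and is intact in both groups, was at 135, 119.9, 142 and 179.8 in WT and 358, 317, 260.4 and 367 in DKO cells. It rose by 1.17 ± 0.19 (adjusted p = 4.0e-05), with all 4 DKO libraries above all 4 WT libraries.

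The hairpins that Roquin is known to bind are shown first for the genes to which the results return. The 3′ UTRs of the GENCODE M21 annotation (GRCm38) were searched on the transcript's strand for the 8 nonamers TTCCACGAA, TTCCATGAA, TTCCGCGAA, TTCCGTGAA, TTCTACGAA, TTCTATGAA, TTCTGCGAA and TTCTGTGAA, in which TTC and GAA can pair around a loop of 3 bases. A match was kept where the stem could be extended to at least 5 base pairs. The first lines are of genes that rose (Nfkbid, Ctla4, Pdzk1ip1) or have long been known as substrates (Icos, Tnf, Nfkbiz), the last of genes that fell (Rc3h1, Gvin1), each with 25 bases and the nonamer in capitals.
Nfkbid, chr7:30428397-30428421, plus strand: taggtgatTTCTGTGAAatcgagcc
Nfkbid, chr7:30428425-30428449, plus strand: ttgattgtTTCTGTGAAacactcta
Ctla4, chr1:60915760-60915784, plus strand: tcaatattTTCCATGAAaatgcaac
Pdzk1ip1, chr4:115093823-115093847, plus strand: gctcttatTTCTGTGAAataaagac
Icos, chr1:60999481-60999505, plus strand: aacaaaatTTCTGTGAAataaaatc
Tnf, chr17:35199580-35199604, minus strand: gacatgttTTCTGTGAAaacggagc
Nfkbiz, chr16:55812609-55812633, minus strand: taagttgtTTCTATGAAacaaaccc
Rc3h1, chr1:160968034-160968058, plus strand: tgtttttgTTCTGTGAAtgaacttt
Rc3h1, chr1:160971655-160971679, plus strand: ccaataacTTCTGTGAAgttgcctt
Gvin1, chr7:106156758-106156782, minus strand: tgaagattTTCTATGAAaatgattt
Nfkbid and Rc3h1 each held 2 such hairpins, and Nfkbid, Pdzk1ip1, Icos, Tnf and Rc3h1 shared the nonamer TTCTGTGAA. Of all 13569 genes tested that had an annotated 3′ UTR, 186 (1.37%) held at least 1 hairpin. Among the genes that rose it was 15 of 726 (2.07%), with a median UTR of 1432 bases against 1179 for all genes. Among those that fell it was 7 of 97 (7.22%), with a median UTR of 1145 bases: Rc3h1 itself, Gvin1 and its near-identical copy Gm4070 with the same site, Mndal, Sh3bp2, Timp3 and Tmem260. Of these, Timp3 was low (means of 9.82 in WT and 2.62 in DKO cells), and the groups overlapped for Tmem260 (adjusted p = 0.049). Mndal lost its call without any 1 of 6 libraries. Rc3h1 is itself a targeted gene, and Gvin1 and Gm4070 hold the same site, so the 7 are not independent members. These shares describe the letters of the annotated UTRs, and no binding was measured.

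In all, 863 of 16140 genes (5.35%) were called at 4 h, of which 754 rose (4.67% of genes tested) and 109 fell (0.675%). Rises of at least 2-fold numbered 182 and falls 50. The median change over all genes was 0.07 and ranged from −0.05 to 0.10 over 5 ways of scaling the libraries, and with it the share of calls that were rises went from 87.4% to between 60.6 and 90.2%. Under all 5 scalings 331 genes rose and 102 fell. When only the 8 libraries entered the fit, rises were 46.5% of 1225 calls, and with a stricter filter on low values they were 63.0% of 589. The 4 libraries of one group lay wholly above or below those of the other for 16.7% of genes tested, with DKO above for 10.7% and below for 5.98%. The 8 libraries were also compared with their place in the list as a block, since DKO and WT libraries at the same place deviated together. That fit called 2496 of 13766 genes (18.1%), in nearly equal numbers up (1244, 9.04%) and down (1252, 9.09%), and shared 723 calls with the first. It differs from the first fit in the libraries used as well as in the block, and "with the block" below stands for both; the block over all 64 libraries gave 889 calls. Leaving out 1 library moved the count by over 1.5 times without DKO library 1, 2 or 3 (551, 550 and 433 calls) and without WT library 1, 2 or 4 (422, 548 and 445 calls). The authors' deposited table gave a false discovery rate under 0.05 for 915 of the genes tested (507 higher and 408 lower), and 483 of them were called here in the same direction, which is 56.0% of the calls here and 52.8% of theirs.

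**Figure D1:**
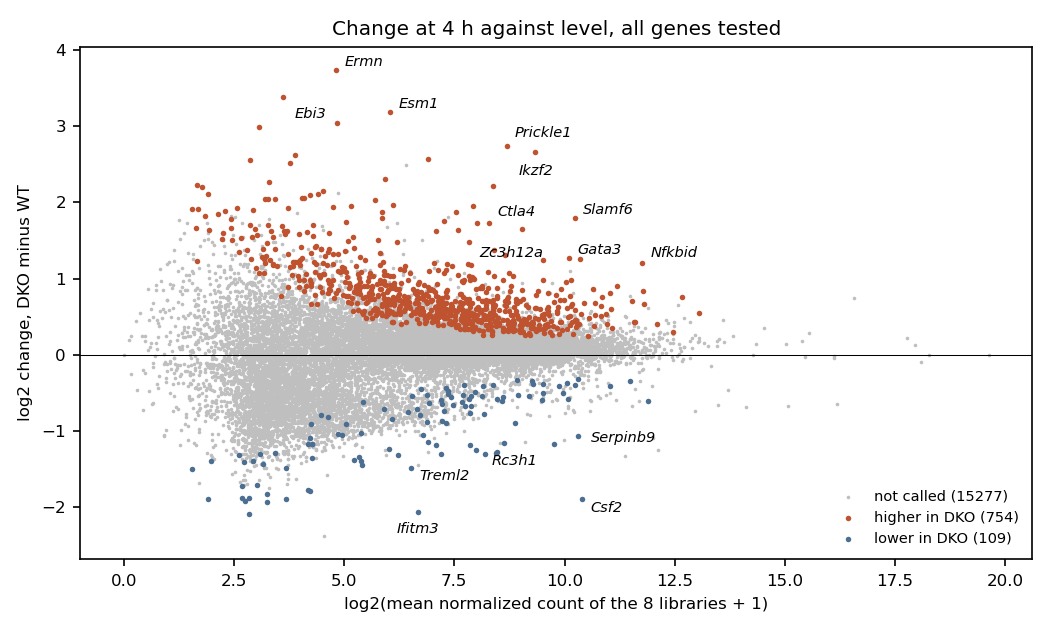
Log2 change at 4 h (DKO minus WT, vertical axis) against the log2 of the mean normalized count of the 8 libraries plus 1 (horizontal axis), 1 point per gene tested. The 754 genes that rose (orange) outnumber the 109 that fell (blue), and genes named in the text are labelled.

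The mRNAs that earlier work reported as Roquin or Regnase-1 targets were mostly not called at 4 h. Of 16 tested, 3 rose (Ctla4, Nfkbid and Zc3h12a) and none fell, and their median change was 0.32 against 0.07 over all genes. The share called was 18.75%, against 5.35% of all genes. With the block, 6 of 15 rose (Rel, Tnfrsf4 and Nfat5 in addition), where 9.04% of all genes did. The number called went from 2 without DKO library 3 to 4 without DKO library 4. The list was put together from published reports with earlier results of these data known.

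Nfkbid and Ctla4 were the 2 immune regulators of that list to rise beside Zc3h12a. Nfkbid (chromosome 7, 30421732 to 30428746, plus strand), which encodes the nuclear NF-κB cofactor IκBNS, was at 1829.6, 1574, 1928 and 3239.7 in WT and 5755, 4273, 3795 and 5480.0 in DKO cells, a rise of 1.21 ± 0.28 (adjusted p = 0.0042). WT library 4 was the highest of its group and still below every DKO library. Ctla4 (chromosome 1, 60887000 to 60915832, plus strand), the inhibitory receptor that competes with CD28 for its ligands, was at 149, 116, 171 and 104 in WT and 447, 471, 787 and 233 in DKO cells, a rise of 1.73 ± 0.42 (adjusted p = 0.0071; 0.00029 to 0.061 over 23 alternatives). Its groups did not overlap, but DKO library 3 was far above and library 4 far below the other DKO libraries, and the call was lost without DKO library 3 (adjusted p = 0.061).

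Icos, the costimulatory receptor by which Roquin is best known, was not called at 4 h. It (chromosome 1, 60977927 to 61000320, plus strand) was at 832, 736, 651 and 392 in WT and 1947, 2232, 1659 and 455 in DKO cells. DKO libraries 1 to 3 were above every WT library, whereas library 4 lay within the WT range. The log2 change was 1.10 ± 0.40 (adjusted p = 0.099; 0.055 with the block), and Icos was called without DKO library 4 (adjusted p = 0.0052) and under 2 of 15 other settings, without library 4 of both groups and with the covariate for long loci (0.0052 to 0.34 over 23 alternatives). Tnfrsf4, the receptor OX40, was at 2955, 2544, 3141 and 3319 in WT and 4877, 3889.7, 5297 and 4337 in DKO cells. All DKO libraries exceeded all WT libraries, and the change of 0.62 ± 0.30 did not pass over all libraries (adjusted p = 0.24) but did with the block (0.00023).

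Of the target list's cytokine and NF-κB members other than Nfkbid, none was called in the fit over all libraries. Tnf was at 1597, 1565, 1846 and 2892 in WT and 1708, 1328, 1888 and 2859 in DKO cells, with library 4 the highest of each group (log2 change -0.03 ± 0.34, adjusted p = 0.97). Il2 was at 3337, 3327, 4761 and 6967 and 3433, 2233, 3674 and 7726, again highest in library 4 of both groups (adjusted p = 0.87). Nfkbiz, which encodes IκBζ and holds one of the hairpins above, was at 367, 388, 537 and 399 and 401, 401, 517 and 462 (adjusted p = 0.86). Irf4, a transcription factor of activated lymphocytes, had a log2 change of -0.01 ± 0.21. Rel, Nfat5, Tnfaip3, Ier3, Ptgs2 and Il6 had adjusted p values of 0.4, 0.49, 0.67, 0.9, 0.48 and 0.79, and with the block Rel (0.045) and Nfat5 (0.0081) were called higher.

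**Figure D2:**
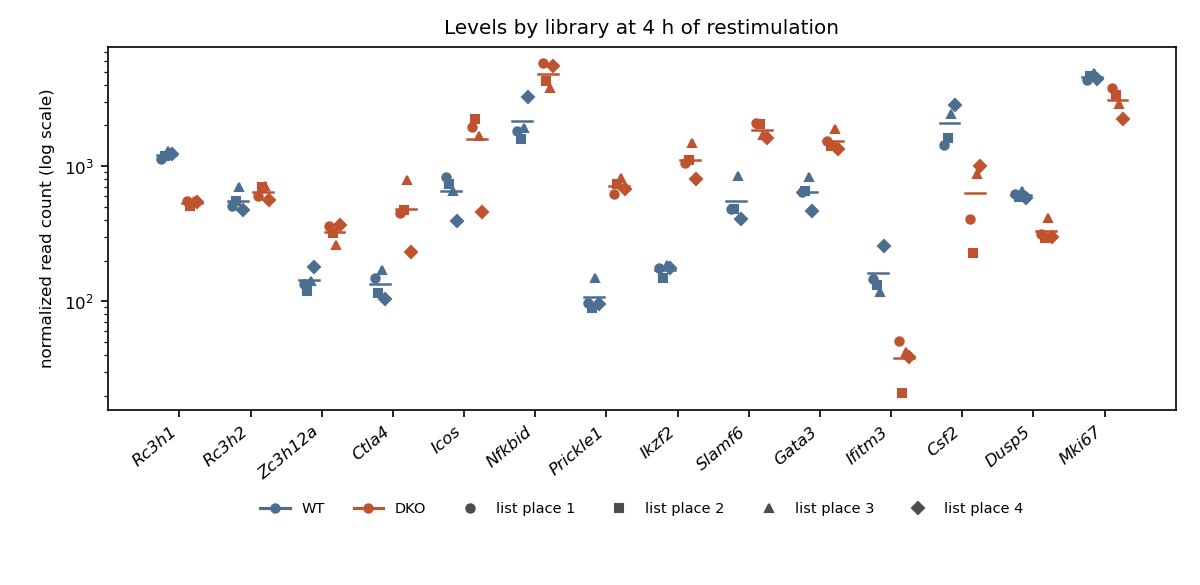
Normalized read counts at 4 h on a log axis for 14 genes, WT in blue and DKO in orange, with 1 marker shape per place in the deposited list and a line at the mean of 4 libraries. Rc3h1 is lower in all DKO libraries, while DKO library 4 of Icos (455 counts) lies within the WT range.

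Of the 15 largest rises by the rule for naming genes, Ctla4 was on the target list. Prickle1, a planar cell polarity gene (chromosome 15, 93499114 to 93595891, minus strand), had the smallest adjusted p value of the 15: it was at 96.8, 89.4, 149 and 94.7 in WT and 623, 740.2, 822 and 671 in DKO cells, a rise of 2.75 ± 0.23 (adjusted p = 1.7e-12). Ikzf2, which encodes the Ikaros-family factor Helios (chromosome 1, 69531214 to 69687245, minus strand), was at 177, 148, 185 and 176 and 1056, 1106, 1483 and 797, a rise of 2.66 ± 0.33 (adjusted p = 2.8e-07). In both genes every DKO library was more than 4 times the highest WT library. Ermn, which encodes a cytoskeletal protein, was at 1.06, 5.90, 1.87 and 1.62 and 43.3, 89.0, 63.8 and 11.9 and rose by 3.73 ± 0.59. It was not called with voom (adjusted p = 0.057), and it overlaps Galnt5 on the other strand, with 12.7% as many reads. Esm1, which encodes the proteoglycan endocan, was at 13.8, 3.93, 37.4 and 5.67 and 101, 69.7, 203 and 86.5, a rise of 3.19 ± 0.82 that was lost without any 1 of DKO library 3 or WT library 2 or 4 (adjusted p = 0.064 to 0.069; lost under 1 of 15 other settings too). Gzmk overlaps Esm1 on the other strand, with 11.0% as many reads.

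Several further rises were of cell surface molecules. Slamf6, a homophilic receptor of T cell and B cell contacts (chromosome 1, 171917515 to 171953170, plus strand), was at 483, 478, 843 and 406 in WT and 2095, 2041, 1684 and 1602 in DKO cells, a rise of 1.80 ± 0.25 (adjusted p = 3.9e-06). WT library 3 was the highest of its group, and the lowest DKO library was at 1602. Dpp4, the peptidase CD26 (with Gm13561 on the other strand, at 10.8% of its reads), rose by 1.76 ± 0.24, Calcrl, the receptor component for CGRP and adrenomedullin, by 2.21 ± 0.37, and the semaphorin receptor Plxnb2 by 1.80 ± 0.42. The membrane protein gene Pdzk1ip1 (chromosome 4, 115088708 to 115093899, plus strand) was at 68.1, 78.6, 163 and 84.2 and 376, 290.4, 627 and 254, a rise of 1.96 ± 0.40 (adjusted p = 0.00083). Igsf9b, an adhesion molecule, rose by 1.88 ± 0.51 and was not called without any 1 of DKO library 3 or 4 or WT library 1 or 2 (adjusted p = 0.065 to 0.15; lost under 2 of 15 other settings too). Among the rest named by the rule, Fam213a rose by 2.03 ± 0.33, Ccdc40 by 1.95 ± 0.31 and Slc37a2 by 1.97 ± 0.38. Slc37a2 overlaps Gm10177 on the other strand, which had 136% as many reads, and without a stated strand setting the reads of the pair cannot be told apart. Ctla2a, a protease inhibitor with a near-identical neighbour, Ctla2b, rose by 1.65 ± 0.41 and was not called without WT library 4 (adjusted p = 0.076).

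The falls were led by Ifitm3. This gene, whose product restricts the entry of enveloped viruses (chromosome 7, 141009586 to 141010770, minus strand), was at 147, 132, 117 and 257 in WT and 51.2, 21.0, 42.1 and 38.8 in DKO cells and fell by 2.06 ± 0.30 (adjusted p = 8.0e-06). Of 4 IFITM genes tested 3 fell and none rose, with a median of -1.55. This was 75% called, against 5.35% of all genes called and 0.675% that fell. With the block 3 of 3 fell, where 9.09% of all genes did. Ifitm2 fell by 1.31 ± 0.31 and Ifitm1 by 1.79 ± 0.37, while Ifitm10 had a log2 change of -0.65 ± 0.55 (adjusted p = 0.52). Ifitm2 was not called without DKO library 2 (adjusted p = 0.065), nor was Ifitm1 without library 4 of both groups (adjusted p = 0.055). The members are similar in sequence, so reads could be shared between them. Among interferon-stimulated genes 12.5% were called, against 5.35% of all genes. Of 24 tested, 2 rose, Ifih1 among them, and 1 fell (Oasl2), with a median of -0.06. The number called went from 0 without DKO library 3 or WT library 4 to 3 without DKO library 4 or WT library 3. With the block 1 of 12 rose, where 9.04% of all genes did. Ifih1 lost its call under 13 of 23 alternatives.

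Csf2 had the next largest fall. This gene, which encodes the cytokine GM-CSF (chromosome 11, 54247271 to 54249667, minus strand), was at 1435, 1612, 2406 and 2826 in WT and 409, 228, 876 and 998 in DKO cells, with every DKO library below every WT library. It fell by 1.90 ± 0.59 (adjusted p = 0.043; 0.009 to 0.19 over 23 alternatives), and it was not called without any 1 of DKO library 1, 2 or 3 or WT library 1, 2, 3 or 4 (adjusted p = 0.053 to 0.19; lost under 5 of 15 other settings too). Serpinb9, an inhibitor of granzyme B, was at 1679.6, 1677, 1581 and 1869 and 705, 611, 1149 and 881, a fall of 1.06 ± 0.21 (adjusted p = 0.00073). Dusp5, a nuclear phosphatase of ERK, was at 620.2, 595, 653 and 584 and 317, 296, 413 and 298, a fall of 0.90 ± 0.16 (adjusted p = 0.00012). Neither group pair overlapped.

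The other falls named by the rule included a receptor, a kinase and GTPases. Treml2, a receptor of the TREM family, fell by 1.48 ± 0.24 (adjusted p = 6.0e-05). Gvin1, a large interferon-inducible GTPase, fell by 1.29 ± 0.24 (adjusted p = 0.00034; 0.1 with only the 8 libraries). Its copy Gm4070 was also called, and the counting could have split reads between them. Phldb1 fell by 1.3 ± 0.34 and was not called without DKO library 2 (adjusted p = 0.074), and the receptor kinase gene Epha2 fell by 1.40 ± 0.43 and was not called without any 1 of DKO library 1, 2 or 4 or WT library 1, 2 or 4 (adjusted p = 0.056 to 0.13; lost under 4 of 15 other settings too). Hist2h4, one of several near-identical histone H4 genes, fell by 1.38 ± 0.38 and was not called without any 1 of DKO library 2 or 3 or WT library 2 (adjusted p = 0.052 to 0.098; lost under 1 of 15 other settings too). Morc1 fell by 1.34 ± 0.40 and was not called without any 1 of DKO library 1 or 3 or WT library 1, 2, 3 or 4 (adjusted p = 0.054 to 0.21; lost under 1 of 15 other settings too). Spag17 fell by 1.45 ± 0.38 and was not called without any 1 of DKO library 1 or 3 (adjusted p = 0.057 to 0.096; lost under 1 of 15 other settings too), and it overlaps Wdr3 on the other strand, which had over 28 times its reads, so the pair cannot be told apart.

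Follicular helper T cells are a lineage known to expand in mice with mutant Roquin-1. Of 13 of their genes tested 5 rose (Btla, Cd40lg, Il21, Slamf6 and Tcf7) and none fell, with a median of 0.76. The share called was 38.5%, against 5.35% of all genes. With the block 7 rose (Cd200 and Sh2d1a in addition), where 9.04% of all genes did. The number called went from 2 without WT library 1 to 6 without DKO library 4. Tcf7, the transcription factor TCF-1, was at 434, 385, 464 and 407 in WT and 1287, 1389, 850.4 and 654 in DKO cells, a rise of 1.24 ± 0.22 (adjusted p = 0.00016). Il21, the cytokine of that lineage, was at 11.7, 18.7, 42.0 and 7.29 and 77.8, 78.0, 203 and 41, a rise of 2.31 ± 0.60 that was lost without any 1 of DKO library 3 or WT library 1 or 4 (adjusted p = 0.071 to 0.11; lost under 2 of 15 other settings too). DKO library 3 held the highest and library 4 the lowest Il21 level, which was below WT library 3. Btla, an inhibitory receptor, rose by 0.76 ± 0.18 and was not called without WT library 1 (adjusted p = 0.058), and Cd40lg, the ligand that T cells present to B cells, rose by 0.98 ± 0.26 and was not called without any 1 of WT library 1 or 4 (adjusted p = 0.062 to 0.1; lost under 2 of 15 other settings too). Bcl6, the defining factor of the lineage, had a log2 change of 0.07 ± 0.41 (adjusted p = 0.94), and Cxcr5, its homing receptor, one of -0.60 ± 0.51 (adjusted p = 0.53).

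The Th1 genes of these Th1-cultured cells were not called, whereas Gata3 rose. Of 15 Th1 genes none passed in limma over all libraries and 1 did with voom. With the block 2 of 14 rose (Il12rb1 and Tbx21) and 3 fell (Ifng, Havcr2 and Eomes). Among all genes, 9.04% rose and 9.09% fell with the block. The number called went from 0 to 1 when DKO library 2 or 4 or WT library 3 was left out. Ifng was at 12929.7, 14642, 17256 and 16549.8 in WT and 10374, 8211, 16435 and 10620.0 in DKO cells (log2 change -0.47 ± 0.57, adjusted p = 0.68; 0.0077 with the block). Gata3, the factor that directs Th2 differentiation (chromosome 2, 9857078 to 9890034, minus strand), was at 640.4, 652, 835 and 462 and 1530.2, 1409.8, 1864 and 1347, a rise of 1.27 ± 0.23 (adjusted p = 0.00026) with no overlap. Of 10 Th2 genes 2 rose (Gata3 and the chemokine receptor Ccr8, by 1.19 ± 0.32), which is 20%, against 5.35% of all genes called. Ccr8 was not called without any 1 of DKO library 3 or WT library 1 or 4 (adjusted p = 0.069 to 0.073; lost under 2 of 15 other settings too). Il4 was at 45.7, 30.5, 59.8 and 37.2 and 69.9, 45.3, 278 and 67.8  and had an adjusted p of 0.23 (0.03 with the block), with DKO library 3 far above the rest.

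**Figure D3:**
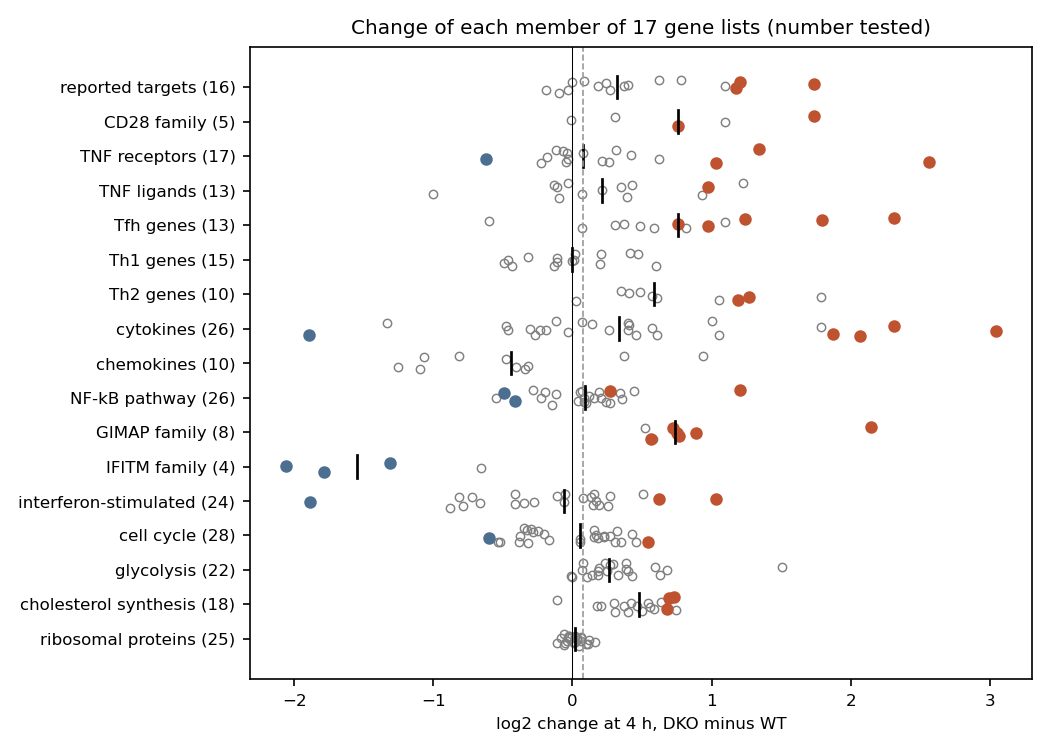
Log2 change at 4 h (horizontal axis) of each tested member of 17 gene lists (vertical axis, number tested in brackets). Filled points rose (orange) or fell (blue), open points were not called, black bars are list medians and the dashed line is the median of all genes (0.07).

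Secreted cytokines moved in both directions. Of 26 tested 4 rose (Ebi3, Il12a, Il21 and Il24) and 1 fell (Csf2), with a median of 0.33. This was 19.2% called, against 5.35% of all genes. The number called went from 1 without DKO library 3 or WT library 1 to 5 without DKO library 4. Ebi3, a subunit shared by IL-27 and IL-35, was at 0, 7.86, 10.3 and 10.5 in WT and 56.1, 44.5, 51.9 and 38.0 in DKO cells, with no overlap. It rose by 3.05 ± 0.39 (adjusted p = 3.2e-07), and by 2.15 without WT library 1, where it was at 0. Gm16712 overlaps it on the other strand, with 26.6% as many reads. Il12a, which can pair with Ebi3, was at 3.19, 3.93, 2.80 and 12.1 and 15.8, 10.1, 36.7 and 44.0, and its rise of 2.06 ± 0.56 was lost without any 1 of DKO library 3 or 4 or WT library 1, 2 or 3 (adjusted p = 0.054 to 0.092; lost under 1 of 14 other settings too). DKO library 2 of Il12a lay below WT library 4.

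None of 10 chemokines passed in the fit over all libraries, where 5.35% of all genes did. Of the 10, 8 had a negative change, and their median was -0.44, against 0.07 over all genes. Beside that count of 0, 2 were called with voom, and 3 of 6 fell with the block (Ccl1, Ccl9 and Xcl1), where 9.09% of all genes did. Ccl1 was at 5263, 6195, 6283 and 7034 in WT and 2397, 1756, 3336 and 3184 in DKO cells (log2 change -1.25 ± 0.41, adjusted p = 0.058, and 0.0012 with the block). It was called under 5 of 23 alternatives, voom and the block among them. Xcl1 was at 4428, 5112, 4168 and 8959 and 2423, 2050.1, 2203 and 3714 (adjusted p = 0.19; 1.5e-06 with the block). In both genes the 2 groups did not overlap.

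TNF receptors showed a few rises from low levels. Of 17 tested 3 rose (Tnfrsf8, Tnfrsf13b and Tnfrsf25) and 1 fell (Fas), with a median of 0.07. The share called was 23.5%, against 5.35% of all genes. The number called went from 2 without DKO library 2 or 3 or WT library 2 to 3 without DKO library 1 or 4 or WT library 1, 3 or 4. Tnfrsf13b, the receptor TACI, was at 36.2, 22.6, 36.4 and 26.7 in WT and 83.7, 95.7, 87.5 and 50.7 in DKO cells, a rise of 1.34 ± 0.20 (adjusted p = 1.1e-05). Tnfrsf8, the activation receptor CD30, was at 22.3, 21.6, 39.2 and 25.1 and 207, 222, 383 and 37.3, so that DKO library 4 fell within the WT range. Its rise of 2.56 ± 0.73 was 3.26 without that library, and it was not called without any 1 of DKO library 1, 2 or 3 or WT library 1, 2 or 4 (adjusted p = 0.074 to 0.15; lost under 3 of 15 other settings too). Of 13 ligands of the family, Cd40lg alone was called (7.69%), and Tnfsf4, the ligand of OX40, was at 60.6, 65.8, 83.1 and 81.8 and 26.6, 30.2, 49.7 and 39.5 without overlap (adjusted p = 0.071; 0.0011 with the block).

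The GIMAP family consists of small GTPases of lymphocyte survival encoded side by side on chromosome 6. Of 8 tested 6 rose (Gimap3, Gimap5, Gimap6, Gimap7, Gimap8 and Gimap9) and none fell, with a median of 0.74. This was 75% called, against 5.35% of all genes. All 8 rose with the block, where 9.04% of all genes did. The number called went from 3 without WT library 4 to 8 without DKO library 4. Gimap3 was at 90.4, 90.4, 76.6 and 68.8 in WT and 183, 170.4, 159.9 and 103 in DKO cells, a rise of 0.89 ± 0.14 (adjusted p = 1.5e-05) with no overlap. Gimap7 was at 10.6, 10.8, 3.74 and 3.24 and 39.4, 61.3, 35.7 and 10.4, a rise of 2.14 ± 0.35 (adjusted p = 6.3e-05). DKO library 4 was the lowest of its group for each of these 2 genes, and for Gimap7 it lay just below WT libraries 1 and 2.

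Genes of naive and resting T cells and of T cell identity included rises that held without any single library, such as Lef1, Tcf7 and Cd247. Lef1, a partner of TCF-1 in naive cells, was at 720.1, 686, 822 and 537 in WT and 1273, 1327, 1296 and 1084 in DKO cells, a rise of 0.86 ± 0.14 (adjusted p = 7.4e-05). Of 18 genes of naive or quiescent cells 3 rose (Lef1, Tcf7 and Ypel3) and none fell, with a median of 0.21. This was 16.7% called, against 5.35% of all genes. With the block 4 of 16 rose and 3 fell, where 9.04% of all genes rose and 9.09% fell. Cd247, the zeta chain of the antigen receptor complex, was at 2652, 2629, 3203 and 2513 and 4767, 4165, 4371 and 4167, a rise of 0.67 ± 0.11 (adjusted p = 9.3e-05), and it overlaps Pou2f1 on the other strand. Of 14 T cell identity genes 3 rose (Cd247, Cd3g and Cd4), or 21.4%. The number called among these genes went from 1 without DKO library 3 to 4 without DKO library 4. Their summed level was 13153 to 15390 counts in WT and 14399 to 18077 in DKO libraries.

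Markers of other cell types were low but not all equal between the groups. NK cell markers summed to 233 to 364 counts in WT and 146 to 161 in DKO libraries, almost all of it Nkg7, which activated T cells also make. Myeloid markers summed to 177 to 225 and 280 to 305, mostly Ctss (157, 142, 140.1 and 195 against 254, 261, 229 and 267, a rise of 0.68 ± 0.15), with Lyz2 at 0 in all 8 libraries. B cell markers summed to 154 to 266 and 229 to 299, and of 6 tested only 2 had a positive change (median -0.46). Ighm rose (0.84 ± 0.24), although not without any 1 of DKO library 1, 2 or 3 or WT library 1, 2 or 3 (adjusted p = 0.051 to 0.12; lost under 6 of 15 other settings too), and with the block Pax5 and Ebf1 fell and Ighm was not called (0.058). CD8 markers summed to 39.2 to 140 and 81.7 to 149, but the 2 members went opposite ways. Cd8b1 had a log2 change of 0.89 ± 0.40 without overlap of the groups (adjusted p = 0.20), and Cd8a one of -1.57. Neither was called in the fit over all libraries, and with the block Cd8a fell, where 9.09% of all genes did. Neutrophil markers summed to at most 5.87 counts in any library. The part of such cells in the changes above was not tested.

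Metabolic and proliferation genes differed in their calls between the fits. Among all genes, 5.35% were called in the fit over all libraries. The block over the 8 libraries called 9.04% of all genes higher and 9.09% lower. Of 22 glycolysis genes none was called in limma or with voom, and 20 had a positive change (median 0.26), while 8 rose and none fell with the block over the 8 libraries, 3 rose in the 8 libraries without a block and none was called with the block over all 64. Of 18 cholesterol synthesis genes 3 rose (Dhcr7, Fdft1 and Lss) and none fell (16.7% called, median 0.48). With the block over the 8 libraries 8 rose, without it 2 and with the block over all 64 also 2. The number called there went from 0 without DKO library 1, 2 or 3 or WT library 1 or 3 to 3 without DKO library 4, and Dhcr7, Lss and Fdft1 lost their calls under 16, 14 and 12 of 23 alternatives. Fdft1 overlaps Ctsb on the other strand, which had 172% as many reads. Of 28 cell cycle genes Ccnd2 rose and Mki67 fell, which is 7.14% called, near the share of all genes. With the block over the 8 libraries 5 rose and 12 fell, against 1 and 3 without it and 1 and 1 with the block over all 64. Mki67, the proliferation antigen, was at 4327, 4618, 4906 and 4372 in WT and 3767, 3364, 2885 and 2217 in DKO cells, a fall of 0.60 ± 0.11 (adjusted p = 0.00026), with DKO library 4 the lowest. Ccnd2, which encodes cyclin D2, was at 6225, 6437, 8711 and 6169 and 9327, 9266, 11690.5 and 9644, a rise of 0.54 ± 0.13 that was lost without any 1 of DKO library 3 or WT library 1 or 4 (adjusted p = 0.061 to 0.1; lost under 3 of 15 other settings too). Ribosomal protein genes, 25 of them, ranged from −0.11 to 0.16 and none was called.

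The effect at 4 h was set against that in the same genotypes before restimulation, with which it shares no library. Of the 754 genes that rose, 626 had a positive effect at 0, 1 and 2 h as well, 264 were also called higher at 0 h (where 864 genes, 5.35%, were called higher and 2.3% lower) and 195 at all 4 times. Of the 109 that fell, 87 were negative throughout, 30 were called lower at 0 h and 22 at all times. The shares of all genes tested with the same sign, or called, at all these times are not given here. The counts over several times therefore have no baseline to be read against. The difference between the 4 h and the 0 h effect was called for 133 genes (0.824%), with a higher effect at 4 h for 79 (0.489%) and a lower one for 54 (0.335%). Of those 54, 48 had been called higher at 0 h, and of the 79, 34 were called higher at 4 h. The 0 h and 4 h effects are themselves the terms of this difference. These overlaps are thus partly set by the selection and are no separate result. The count of 133 depended on single libraries and on scaling. It was 340 without WT 0 h library 4, 58 without DKO 0 h library 3, 73 and 78 without WT 0 h library 1 and 3, 74, 77 and 73 without WT 4 h library 1, 2 and 4, and 82, 80 and 73 without DKO 4 h library 1, 2 and 3. With the deposited scaling it was 847 (7 higher and 840 lower), and the median of all differences moved from 0.065 to -0.30. No gene was called for the difference between the 4 h and the 2 h effect (limma; smallest adjusted p 0.476; 579 genes at an unadjusted p under 0.05; none with voom).

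For Rc3h1 itself the gap between the genotypes was wider at 4 h than at rest. Rc3h1 was at 631 ± 84.3 (SD, n = 4) at 0 h and 1206 ± 65.1 at 4 h in WT cells, and at 504 ± 60.7 and 536 ± 20.7 in DKO cells. The effect was -0.32 at 0 h, -0.58 at 1 h, -0.87 at 2 h and -1.17 at 4 h, a difference of -0.85 ± 0.14 between 4 and 0 h (adjusted p = 0.00041). This difference was called under all 29 alternatives, as were those of Prickle1, Gpr155 and Bcl2l1.

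Genes with a higher effect at 4 h included Prickle1, whose effect was 1.19 at 0 h and 2.75 at 4 h (difference 1.55 ± 0.32, adjusted p = 0.0079). Gpr155, which encodes a lysosomal membrane protein, had effects of -0.77 and 0.90 (difference 1.67 ± 0.27, adjusted p = 0.00013). Cd247 had effects of -0.04 and 0.67 (difference 0.71 ± 0.16, adjusted p = 0.019), and this call was lost without WT 4 h library 4 or WT 0 h library 3 (adjusted p = 0.0504 to 0.0563), with the deposited scaling, with only the groups compared and with another TMM reference (0.0073 to 0.23 over 29 alternatives). Gata3 had an effect of -0.03 at 0 h, 0.28 at 1 h, 0.64 at 2 h and 1.27 at 4 h. Its difference of 1.29 ± 0.33 (adjusted p = 0.039; 0.016 to 0.12 over 29 alternatives) was lost under 16 of them, among these the omission of any 1 of DKO 4 h library 1, 2 or 3, WT 4 h library 1, 2 or 4, DKO 0 h library 2 or 4 or WT 0 h library 3 or 4.

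Other genes had an effect that was large at rest and small at 4 h. Zbtb32, a transcription factor gene induced by activation (chromosome 7, 30589681 to 30598909, minus strand), had an effect of 3.72 at 0 h and 0.53 at 4 h (difference -3.19 ± 0.72, adjusted p = 0.019), which was lost without DKO 0 h library 3 (adjusted p = 0.075) and with voom. Its DKO level was 158 ± 98.3 at 0 h and 1393 ± 197 at 4 h, and its WT level at 4 h was 964 ± 112. Tnfsf14, the TNF-family ligand LIGHT, was at 9.43 ± 1.53 in WT and 83.2 ± 37.2 in DKO cells at 0 h, and at 866 ± 154 and 1113 ± 266 at 4 h. Its effects of 2.88 and 0.35 differed by -2.53 ± 0.37 (adjusted p = 3.3e-05; 0.074 with voom).

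Irf4 and Pdzk1ip1 also had smaller effects at 4 h. That on Irf4 was 1.14 at 0 h and -0.01 at 4 h (difference -1.15 ± 0.30, adjusted p = 0.041; 0.00069 to 0.15 over 29 alternatives). The call on Irf4 was lost under 13 of these, among them the omission of any 1 of DKO 4 h library 3 or 4, WT 4 h library 1, 2 or 4, DKO 0 h library 3 or 4 or WT 0 h library 1, 2 or 3. The effect on Pdzk1ip1 was 4.59 at 0 h and 1.96 at 4 h, a difference that was not called with voom or with a pseudocount of 5.

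For the costimulatory receptors the difference was not called. The effect on Icos was 2.76 at 0 h, 2.38 at 1 h, 1.63 at 2 h and 1.10 at 4 h (adjusted p of the difference between 4 and 0 h = 0.17). That on Tnfrsf4 was 2.14, 1.59, 0.78 and 0.62 (adjusted p = 0.067). Icos was at 4828 ± 1176 counts at 0 h and 1573 ± 781 at 4 h in DKO cells, and at 726 ± 251 and 653 ± 189 in WT cells.

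**Figure D4:**
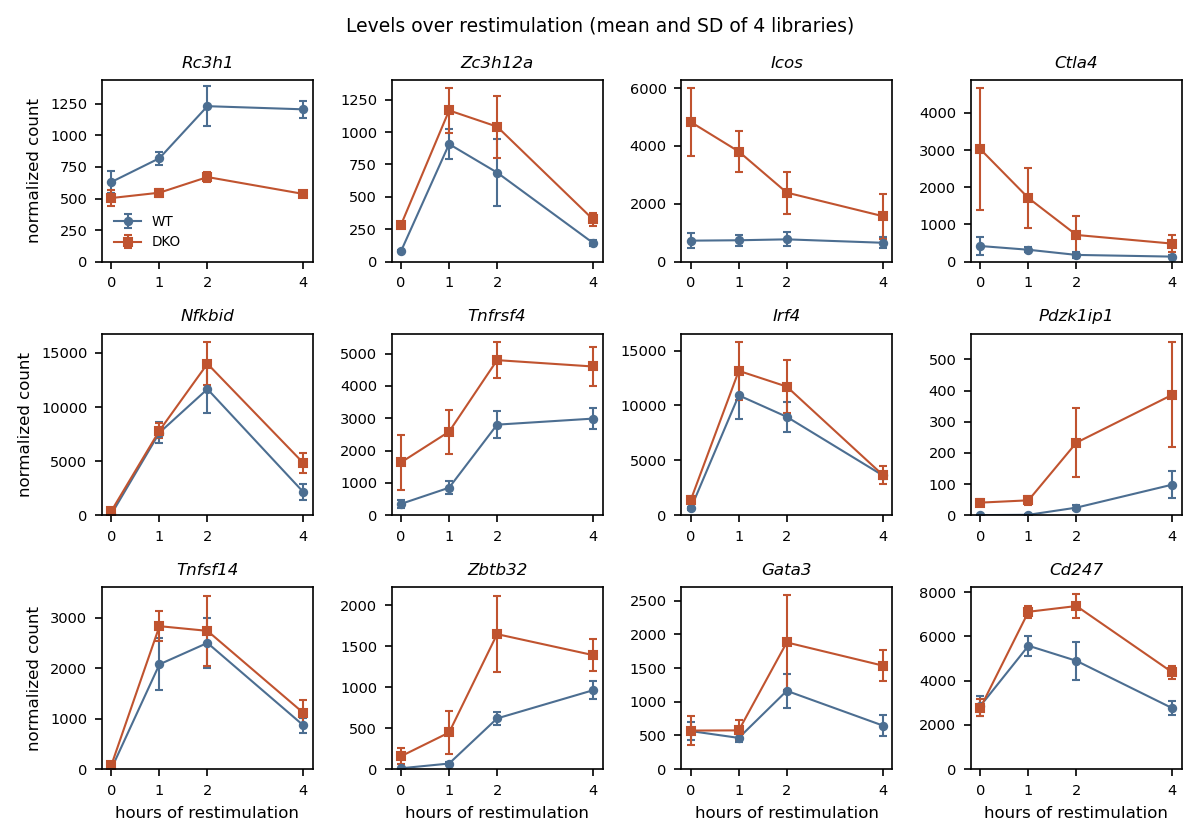
Normalized counts of 12 genes at 0, 1, 2 and 4 h of restimulation in WT (blue circles) and DKO cells (orange squares), as mean and SD of 4 libraries on linear axes that start at 0. The Rc3h1 means of the genotypes lie farthest apart at 4 h, while the Icos mean in DKO cells is lower at 4 h (1573) than at 0 h (4828).

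The change at 4 h also went with the length of the gene locus. Genes of loci up to 10 kb had a median change of 0.10 (4111 genes tested) and those of 10 to 30 kb 0.13 (4418). The median was −0.15 for loci of 100 to 300 kb, −0.60 for 300 to 500 kb, −0.65 for 500 kb to 1 Mb and −0.75 for the 56 genes over 1 Mb. Of the 577 genes over 300 kb, 13 rose and 6 fell, and with the block 24 of 576 rose and 313 fell (54.3%, against 9.09% of all genes). The summed level of the 56 genes over 1 Mb was 18141 to 21230 counts in the 4 WT and 14912 to 18663 in the 4 DKO libraries. DKO library 4, with 18663, lay within the WT range and the other 3 below it. The same order of medians was seen at 0, 1 and 2 h, at −0.49, −0.63 and −0.68 for loci over 1 Mb. With that summed level as a covariate 801 genes were called at 4 h (630 higher and 171 lower). How reads were assigned within a locus is not stated in the labels, and the part of locus length in the counts above was not tested further.

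**Figure D5:**
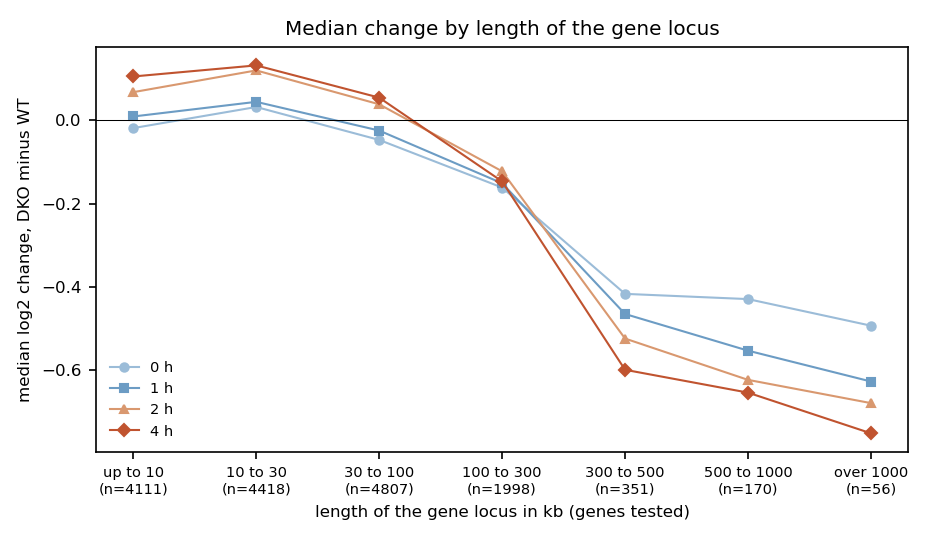
Median log2 change (DKO minus WT, vertical axis) of the genes tested, by length of the annotated locus (horizontal axis, number of genes in brackets), at 0, 1, 2 and 4 h. At every time the median is lowest for loci over 1 Mb, where it is −0.75 at 4 h.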

How the data were processed

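RNA of 64 libraries was sequenced, of which 8 are compared here. GRCm38 is the build named in the submitters' processing notes; for aligner, counting tool, annotation and strand setting, none is given in the sources used here. The deposited table covers 23134 genes. Per the file headers, a cell per group holds 4 normalized read counts without replicate numbers, beside the deposited group mean (signal), and each comparison of the authors has a deposited false discovery rate (an adjusted p-value) and a log2 fold change. Low values fell on whole multiples of a library's smallest step (100% within 0.1 read), which gave back the reads.

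Values were rescaled with TMM factors (trims of 30 and 5 percent) over genes with at least 10 reads at the median depth (1.3 CPM) in at least 4 libraries and 15 in all. The test was limma 3.58.1 in R 4.3.3, 2-sided, trended and robust, on log2(value + 1), which understates changes of low genes, fitting 16 group means to the 64 libraries (48 residual df), with Benjamini-Hochberg adjustment over 16140 genes. The planned design foresaw count models as alternatives; as the deposited columns are lists of normalized values, limma voom on the recovered reads took their place. The test was tried on simulated data first.

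Over 7752 genes with a mean above 100, the deviations of DKO and WT libraries at the same list place correlated at 0.56 to 0.63, and at other places at −0.52 to 0.25. The place was therefore also used as a block over the 8 libraries, although no label gives it; that fit was added after seeing the data, as were the covariate, the omission of library 4 from both groups, the other TMM reference and the calls under all 5 scalings.

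Genes named are the 3 targeted genes, all reported targets, the 15 largest rises and 10 largest falls among called genes whose groups do not overlap and whose higher group has a mean of at least 50 (predicted models left out), the 3 called members with the largest change and the most abundant uncalled member of each of 46 lists, and the 5 largest called differences of effects in each direction. Other members of a list, Gm4070, Cxcr5 and Bcl6 among them, were named after their values were seen. Single values of some listed genes are not reported here. Members and lists were chosen with earlier results of these data known. Locus positions and UTRs are from GENCODE M21, which matched 22724 of the genes.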

Additional observations from a re-analysis of the deposited data

Results flagged for a closer look

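Of 272 groups of 4 libraries (136 named genes in WT and DKO cells at 4 h), 17 held a library far from the other 3, where chance flags about 1 group in 20. Library 3 was the one in 11 of them. The number flagged was near what chance gives, and the flags are not independent, since all genes share the same 8 libraries. In DKO cells it was high for Calcrl (998 counts, the others 371 to 429), Ccnd2 (11691, others 9266 to 9644), Cd3g (660.2, others 533 to 547) and Rel (2422, others 1838 to 1907). In WT cells it was high for Ccnd2 (8711, others 6169 to 6437), Dpp4 (106, others 57.0 to 62.3), Nfat5 (3725, others 2466 to 2647), Pdzk1ip1 (163, others 68.1 to 84.2), Prickle1 (149, others 89.4 to 96.8) and Tnfsf11 (5617, others 2738 to 3068), and low for Hist2h4 (39.2, others 56.4 to 59.1). DKO library 4 was low for Cnot1 (2638, others 2991 to 3052), Ctla2a (369.8, others 922 to 966), Hspa8 (12790.4, others 16185 to 16869) and Tfrc (3504, others 3691 to 3726). WT library 2 was high for Ermn (5.90, others 1.06 to 1.87) and WT library 4 for Il12a (12.1, others 2.80 to 3.93).

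Among the named genes, 17 had an effect of Roquin loss at 4 h that differed from the effect at 0 h by limma's test of the difference (adjusted p under 0.05). The effect was higher at 4 h for Gpr155 (by 1.67), Prickle1 (1.55), Ccnj (1.49), Ppargc1b (1.43), Zdhhc14 (1.38), Gata3 (1.29), Dhcr7 (1.27) and Cd247 (0.71). It was lower at 4 h for Il9r (−3.98), Zbtb32 (−3.19), Pdzk1ip1 (−2.63), Tnfsf14 (−2.53), Pkhd1l1 (−2.42), Irf4 (−1.15), Bcl2l1 (−1.14), Traf1 (−0.87) and Rc3h1 (−0.85). Of 29 alternatives, Ccnj lost its call under 19, Gata3, Dhcr7 and Zdhhc14 under 16, Irf4 under 13, Traf1 under 12 and Pkhd1l1 under 9, and the other 10 genes under 5 or fewer.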

How the results depend on the processing

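No gene or difference that was called, among those named, changed direction under any alternative; 19 uncalled ones did, none of them called then (smallest adjusted p 0.562). The 863 calls at 4 h became 543 with the deposited scaling (379 higher and 164 lower), 558 with upper-quartile scaling (338 and 220), 433 when a call was required under all 5 scalings and 2496 with the replicate block over the 8 libraries compared, and ranged from 422 to 1024 when 1 library was left out. With the replicate block over all 64 libraries it was 889. The other alternatives gave 577 to 1225 calls, the last with only the 8 libraries and no block (570 higher and 655 lower). The 133 differences between the 4 h and 0 h effects became 847 with the deposited scaling, 73 with no filter on low values and 81 with only the groups compared, and ranged from 58 to 340 without 1 library. For the difference from 2 h the count was 0 to 1, the 1 without DKO library 4 or WT library 1 of the 4 h groups. The causes were not tested.

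Planned count models (edgeR, DESeq2) were not run, since the deposited columns are lists of normalized values. Depth of 6390753 to 9759366 reads per library limits the precision of genes near 10 reads. Whether libraries at one list place share a mouse or a day is not given in the labels.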

Other observations

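Against 5.35% of all genes, 13.3% of BCL2 family genes were called, 13.8% of signalling regulators, 3.03% of mRNA decay genes, 25% of PYHIN and DNA sensing genes and 20% of guanylate-binding and related GTPases. Of 15 BCL2 family genes 2 rose (Bcl2 and Bcl2l2) and none fell. With the block 4 of 14 rose and Bcl2l11, the death-promoting member BIM, fell, where 9.04% of all genes rose and 9.09% fell. Bcl2 was at 614, 660.3, 584 and 493 counts in WT and 933, 1044, 839 and 608 in DKO cells, with DKO library 4 below WT library 2, and was not called without any 1 of DKO library 1, 2 or 3 or WT library 1, 3 or 4 (adjusted p = 0.068 to 0.26; lost under 7 of 15 other settings too). Of 29 negative regulators of antigen receptor and cytokine signalling, Dgkz, Dusp10 and Pdcd4 rose and Dusp5 fell, the number called going from 1 without DKO library 1, 2 or 3 or WT library 4 to 6 without DKO library 4. Of 33 genes of mRNA decay, Cnot6l, a deadenylase subunit, alone was called (694, 703, 843 and 599 in WT and 1119, 1234, 1588 and 831 in DKO cells, a rise of 0.72 ± 0.17), and it was not called without DKO library 3 (adjusted p = 0.055). Of 12 PYHIN and DNA sensing genes, Aim2, a cytosolic DNA sensor of the inflammasome, rose by 1.04 ± 0.20 (131, 150.3, 129.8 and 93.1 and 269, 229, 279 and 255, adjusted p = 0.00034), while Mndal and Pydc3 fell, the number called going from 1 without DKO library 1 or 3 or WT library 4 to 3 without DKO library 2 or 4 or WT library 3. Of 15 guanylate-binding and immunity-related GTPases, Igtp and Irgm2 rose and Gbp3 fell, the number called going from 1 without DKO library 3 to 3 without WT library 1 or 3.

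Dusp10, Pdcd4 and Irgm2 lost their calls under 12, 13 and 12 of 23 alternatives, and Pydc3 under 12 of 21. Mndal was not called without any 1 of DKO library 1, 3 or 4 or WT library 1, 2 or 4 (adjusted p = 0.064 to 0.14). Its call was also lost under 3 of 15 other settings. Of 14 genes of Ikaros and ZBTB factors Ikzf2 alone was called (7.14%, against 5.35% of all genes). With the block 6 rose, where 9.04% of all genes did. Of 26 NF-κB pathway genes 2 rose (Nfkbid and Ikbkb) and 2 fell, Traf1 among them (15.4% called, against 5.35% of all genes). The number called went from 1 without WT library 2 to 3 without DKO library 4 or WT library 3 or 4. Traf1 was not called without any 1 of DKO library 1, 2 or 4 or WT library 1, 2 or 3 (adjusted p = 0.071 to 0.16). Its call was also lost under 5 of 15 other settings. With the block 4 rose and 6 fell, where 9.04% of all genes rose and 9.09% fell. The AP-1 and IRF list had 1 call, Batf, a factor of activated T cells, at 529.7, 526, 636 and 571 in WT and 1095, 1037, 1172 and 731 in DKO cells (a rise of 0.82 ± 0.16, adjusted p = 0.00047). The share called in that list was 5.56%, near that of all genes.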
